A study of Mus musculus with 6 samples.

Results

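The genes described here are the Myc, Max and Mxd network, in sorted mouse pre-B cells of E17.5 embryos. These genes encode Max, its relative Mlx, and transcription factors that pair with Max or Mlx. They were taken by the symbol of the probe on an Illumina MouseWG-6 v2 expression array: MYC, MYCN, MAX, MXD1, MXI1, MXD3, MXD4, MNT, MGA and MLX in the array's spelling, or the older aliases MAD, MAD3, MAD4 and MYCL1, the last of which is Mycl. This gave 11 genes of 28888 gene names, read by 19 of the 45281 probes. The series has 6 arrays, 1 per RNA sample. All cells were purified by sorting from C57BL/6 embryos that carry the Eµ-Myc transgene, in which the enhancer of the immunoglobulin heavy chain locus drives Myc in the B lineage. In 3 samples Smchd1 was wildtype, and in the other 3, called null, both copies of Smchd1 carried a gene trap. Smchd1 is a chromatin protein needed for X inactivation and for silencing of some autosomal genes. All samples analysed here carry the transgene, so the arrays show how the network differs between Smchd1 genotypes on an Eµ-Myc background, and not what the transgene itself changes. Neither the organ nor the gate is named in the labels. Nor is it said that the samples come from different embryos, so the spread that the p-values rest on may be technical.

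Myc, Mycn and Mycl are basic helix-loop-helix leucine zipper proteins that bind DNA as dimers with Max, at the E-box sequence CACGTG, and activate genes of growth and metabolism. Mxd1, Mxi1, Mxd3, Mxd4, Mnt and Mga compete for Max and repress, the Mxd proteins and Mnt through Sin3 and histone deacetylases and Mga in a Polycomb complex known as PRC1.6. Mlx is a relative of Max that pairs with the glucose-responsive factors Mlxip and Mlxipl and also with some Mxd proteins and Mnt. In developing B cells, Myc is high in cycling precursors and falls when large pre-B cells leave the cell cycle.

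Between 15309 and 16447 probes were detected per array, where detected means a detection p under 0.05 against the negative controls. Levels are normalized log2 intensities, and detection began at 5.08 to 5.19 on that scale. The brightest Smchd1 probe had 9.61 ± 0.09 (SD, n = 3) in wildtype and was not detected in any null sample (4.87 ± 0.21, SD, n = 3). This was lower by at least 22.3-fold, with an adjusted p of 5.6e-05 (limma). A dimmer Smchd1 probe, 160735, was still detected in all null samples, at 6.13, 5.15 and 5.43 against 6.90, 6.64 and 6.43 in wildtype (log2 difference -1.09, SE 0.27, adjusted p = 0.86), and where the probes lie relative to the gene trap is not given in the files used here. The array of null replicate 3 stood apart: over the 15878 tested probes its correlations with the other arrays were 0.946 to 0.956, against 0.984 to 0.994 among those other arrays. It lay outside the range of the other 5 arrays for 64% of the tested probes, below it for 35.7% and above it for 28.3%. The main results are therefore given with and without that array.

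No tested network gene had a difference between the genotypes larger than the spread between samples allows to call. Of the 19 probes, 11 probes of 9 genes were detected on at least 3 of the 6 arrays and were tested, and 0 of them passed a Benjamini-Hochberg adjusted p of 0.05 in limma, where 0.0567% of all tested probes did (0.0441% lower and 0.0126% higher in null). At an unadjusted p under 0.05 there were also 0 of 11, against 4.04% of all tested probes. By the brightest tested probe of each gene, 5 genes were higher and 4 lower in null, with a median log2 difference (null minus wildtype) of 0.05, beside a median of -0.01 over all 10904 tested genes. Without null replicate 3 the median of the network genes was -0.08 and again 0 passed, where 0.258% of all tested probes did. In that comparison 0 network probes had an unadjusted p under 0.05, against 7.46% of all tested probes. The 2 groups did not overlap for 1 of the 11 probes, or 9.09%, against 9.61% of all tested probes (5.09% lower and 4.52% higher in null). What stood out was the spread inside the null group for Myc and Mxd3, which came from null replicate 3. Of the 6 arrays, that array held the lowest Myc, Max, Mxd4, Mxi1 and Mga and the highest Mxd3, Mxd1 and Mlx. It lay outside the range of the others for 10 of the 11 tested probes, against 64% of all tested probes. Of all tested probes, 0.126% and 12.4% were as far below as Myc and Max, and 1.22% and 5.98% as far above as Mxd3 and Mxd1. In sorted bulk samples, fewer cells of a type and less RNA per cell cannot be told apart.

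**Figure D1:**
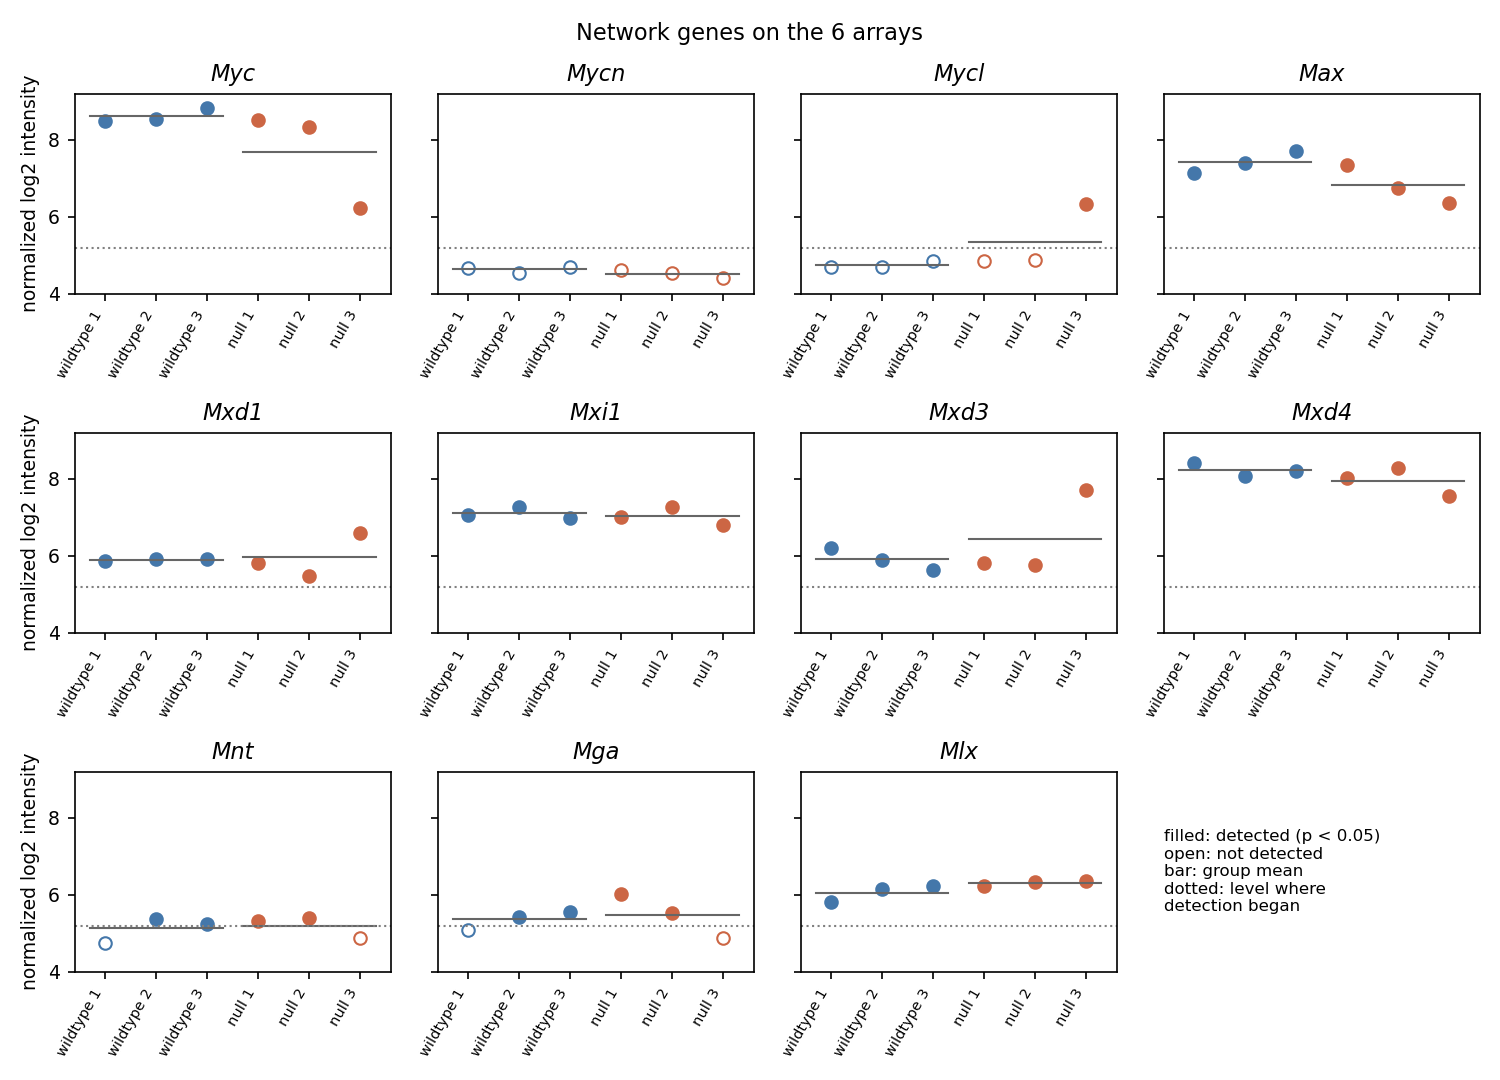
Normalized log2 intensity of each network gene on the 6 arrays (blue, 3 wildtype; orange, 3 Smchd1 null), for the brightest tested probe or, for Mycn and Mycl, the only probe; filled points are detected, bars are group means and the dotted line is the highest of the levels at which detection began, 5.19. Null replicate 3 has Myc at 6.24, where the other arrays have 8.32 to 8.82, and Mxd3 at 7.71, where they have 5.64 to 6.20; levels of different probes are not comparable with each other.

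Myc, the gene that the transgene carries, was detected on every array by probe 5290397. Its log2 level was 8.49, 8.53 and 8.82 in wildtype replicates 1, 2 and 3, and 8.51, 8.32 and 6.24 in null replicates 1, 2 and 3. Null replicates 1 and 2 thus lay within or just under the wildtype range, and null replicate 3 lay far below all others. The group means were 8.61 ± 0.18 and 7.69 ± 1.26 (SD, n = 3 each), a log2 difference of -0.92 (SE 0.56, 95% confidence interval -2.23 to 0.39, limma adjusted p = 0.934). Without null replicate 3 the difference was -0.20 (SE 0.15, interval -0.56 to 0.17, adjusted p = 0.896). With all arrays the interval spans both directions, and a single array sets most of its width.

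The low Myc value of null replicate 3 was already present in the deposited intensities, before any normalization. There the probe read 429.9, 675.5 and 611.5 in the wildtype replicates, 406.2 and 448.1 in null replicates 1 and 2, and 198.0 in null replicate 3. The standard error over beads was between 9.44 and 27.3 on these arrays, and the mean of the negative controls on null replicate 3 was 136.2. The signal above background on that array was thus small but well outside bead error, and all 6 arrays detected the probe. Null replicate 3 was 2.08 below the lowest of the other arrays on the log2 scale. Counting Myc itself, 20 of the 15878 tested probes, or 0.126%, were as far below in that array. With median scaling in place of quantile normalization the gap was 1.90, and 21 probes were as far below. Whether the probe reads the transgene, the endogenous gene or both was not tested, since the files used here give no probe sequence. A second Myc probe, 110075, was not detected on any array, with levels of 4.34 to 4.98, and carries no information on Myc in these cells.

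**Figure D2:**
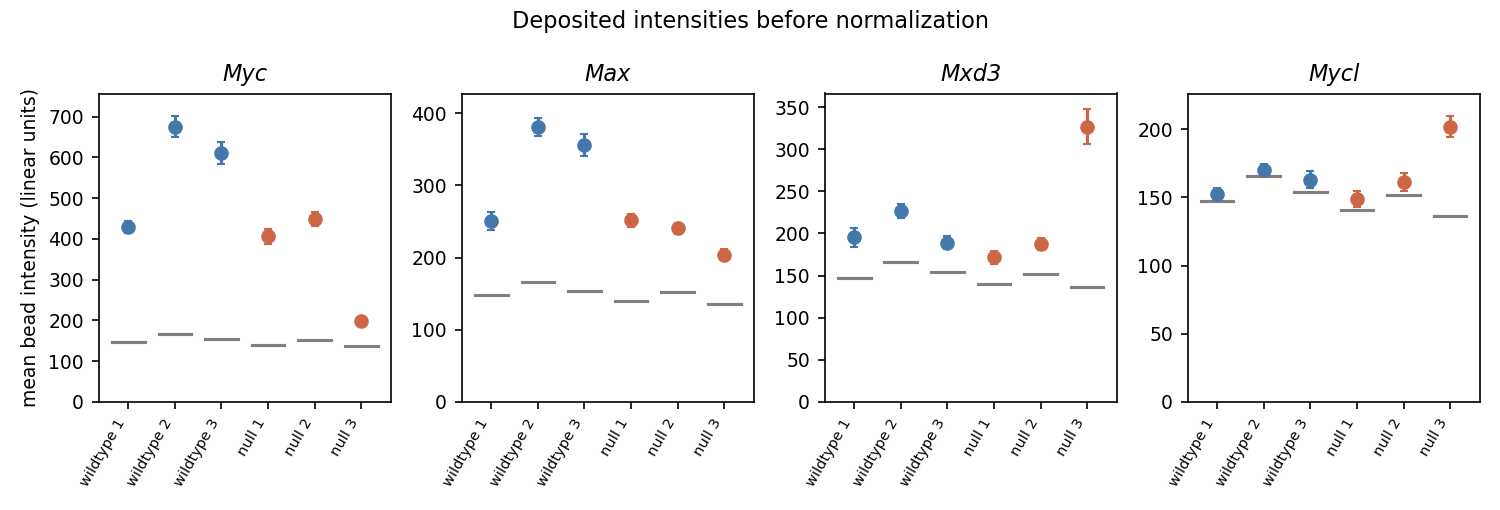
Deposited mean bead intensity (linear scale, from 0) for the probes of Myc, Max, Mxd3 and Mycl on each array; error bars are the standard error over beads and grey bars the mean of the negative controls of that array. Myc in null replicate 3 (198.0) lies close to the control mean of 136.2, whereas Mxd3 (327.0) and Mycl (202.0) are at their highest there.

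The other Myc family genes were at or below background except on 1 array. Mycn, the neuronal paralogue that can replace Myc in development, was not detected anywhere, with log2 levels of 4.42 to 4.69. Mycl was not detected in wildtype (4.71, 4.70 and 4.85) or in null replicates 1 and 2 (4.85 and 4.88), but was detected in null replicate 3 at 6.32. The deposited intensity of the Mycl probe was 202.0 there, with a standard error over beads of 7.39, against 148.7 to 170.2 on the other arrays. As 1 detected array is under the minimum of 3, Mycl was not tested. Its null mean of 5.35 over the level at which detection began in wildtype, whose measured mean was 4.75, gives at least 1.18-fold, and that bound rests on null replicate 3 alone.

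Max, the partner with which the Myc proteins bind DNA and for which the Mxd proteins compete, was represented by 1 probe, detected on all arrays. Its log2 level was 7.15, 7.39 and 7.71 in the wildtype replicates and 7.35, 6.76 and 6.36 in null replicates 1, 2 and 3. Null replicates 2 and 3 lay below every wildtype sample, and null replicate 1 lay inside the wildtype range. With 7.41 ± 0.28 in wildtype and 6.82 ± 0.50 in null (SD, n = 3 each), the log2 difference was -0.59 (SE 0.27, 95% confidence interval -1.24 to 0.05, limma adjusted p = 0.934). It was -0.36 (SE 0.23, adjusted p = 0.847) without null replicate 3. Max had the smallest unadjusted p of the network probes, 0.0672, and 852nd place among the tested probes when these are ordered by p. The difference was negative under all 15 alternative settings, from -0.85 to -0.36, with adjusted p-values of 0.328 to 1. Some of these settings cannot change a difference, as given in the last section, so the sign could turn only under the others.

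Among the Mxd repressors, Mxd3 and Mxd1 had their highest value in null replicate 3, and Mxd4 and Mxi1 their lowest. Mxd3, which in contrast to the other Mxd genes is known for expression in proliferating cells during S phase, had 6.20, 5.90 and 5.64 in the wildtype replicates and 5.82, 5.76 and 7.71 in null replicates 1, 2 and 3. Its value in null replicate 3 was 1.52 above the highest other array, a gap that 194 of the 15878 tested probes, or 1.22%, reached on that side. The other null samples lay inside the wildtype range. The log2 difference between the groups was 0.52 (SE 0.51, 95% confidence interval -0.67 to 1.71, limma adjusted p = 0.934), and it was -0.12 (SE 0.18, adjusted p = 0.968) without null replicate 3, so that its sign rests on that array.

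Mxd1, an antagonist of Myc that is induced as cells differentiate, was read by 3 probes, of which 1 was tested. This probe had 5.87, 5.92 and 5.91 in wildtype, and 5.81, 5.47 and 6.59 in null replicates 1, 2 and 3. The wildtype values were close together, with null replicates 1 and 2 below and null replicate 3 above all of them. The difference was 0.05 (SE 0.28, limma adjusted p = 0.979), and -0.26 (SE 0.14, interval -0.60 to 0.08, adjusted p = 0.794) without null replicate 3. In that second comparison the groups did not overlap, which held for 22.1% of all tested probes with 3 samples against 2 (10.7% lower in null). The other 2 probes were at background, 1 of them detected on wildtype replicate 1 only and the other on no array.

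Mxi1, the Mxd protein also called Mxd2, had 7.07, 7.27 and 6.97 in wildtype and 7.01, 7.27 and 6.79 in null replicates 1, 2 and 3 by its detected probe. All null values but the last lay within the wildtype range. The difference was -0.08 (SE 0.18, 95% confidence interval -0.49 to 0.33, limma adjusted p = 0.955), and 0.04 (SE 0.15) without null replicate 3. Its other probe was not detected on any array.

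Mxd4, which like Mxd1 is linked to differentiation and arrest, was detected on all arrays by both of its probes under that name. Probe 3890343 had 8.42, 8.08 and 8.20 in wildtype and 8.02, 8.29 and 7.55 in null replicates 1, 2 and 3. Probe 1400386 had 7.61, 7.22 and 7.32 in wildtype and 7.10, 7.44 and 6.65 in null, and ordered the 6 arrays in the same way. Null replicate 3 was the lowest array on both, 0.46 below the next. The differences were -0.28 (SE 0.22) and -0.32 (SE 0.23), both with a limma adjusted p of 0.934, and -0.08 (SE 0.16) and -0.11 (SE 0.17) without null replicate 3. Another probe, listed under a clone name that RefSeq gives as a synonym of Mxd4, lies outside the naming rule. It had 11.52, 11.50 and 11.35 in wildtype and 11.32, 11.34 and 10.90 in null replicates 1, 2 and 3, so that the groups did not overlap, as for 9.61% of all tested probes, with a difference of -0.27 (SE 0.17, adjusted p = 0.934). The 3 probes of this gene thus gave differences of -0.27 to -0.32, each with null replicate 3 as the lowest array.

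**Figure D3:**
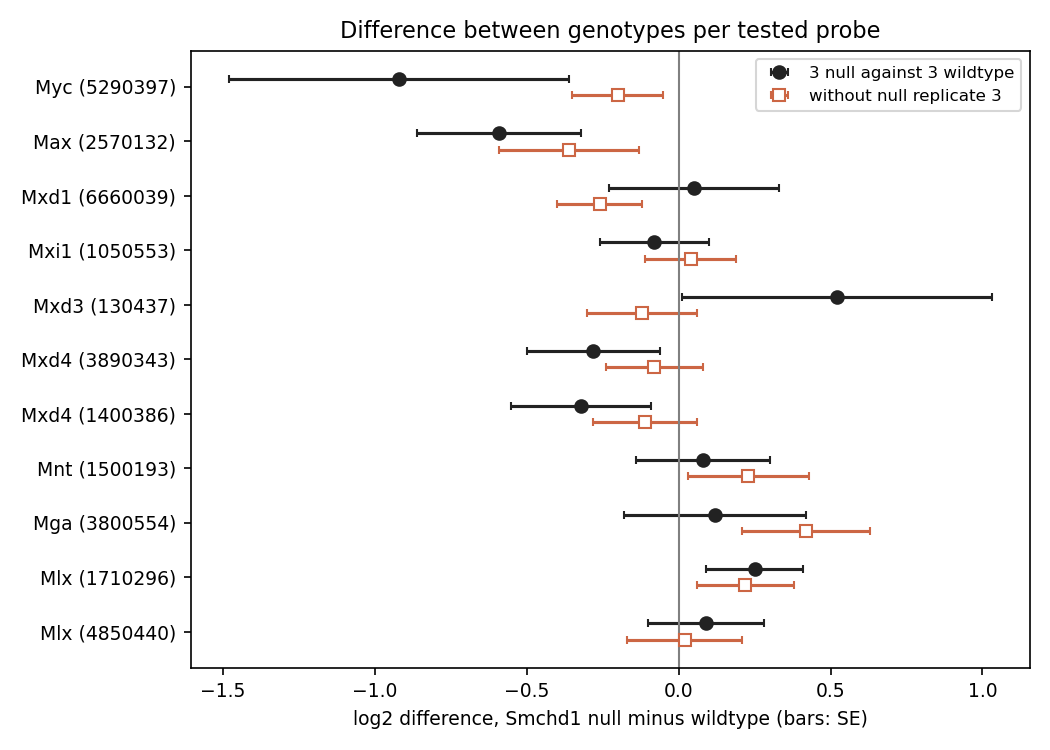
Log2 difference (Smchd1 null minus wildtype) of the 11 tested network probes with all 6 arrays (black circles) and without null replicate 3 (open orange squares); bars are standard errors and probe numbers are in parentheses. The black points run from -0.92 for Myc to 0.52 for Mxd3, and without null replicate 3 all points lie between -0.36 and 0.42.

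Mnt and Mga were close to the detection limit. Mnt, the antagonist of Myc found in most tissues, had 4.76, 5.38 and 5.25 in wildtype and 5.33, 5.39 and 4.89 in null replicates 1, 2 and 3, and was detected on 4 arrays, 2 in each group. The difference was 0.08 (SE 0.22, 95% confidence interval -0.45 to 0.60, limma adjusted p = 0.963). Mga, a very large protein with a T-box as well as the helix-loop-helix zipper, had 5.09, 5.43 and 5.56 in wildtype and 6.03, 5.53 and 4.87 in null replicates 1, 2 and 3, also detected on 2 arrays of each group. Its highest and its lowest value were both null samples, and the difference was 0.12 (SE 0.30, adjusted p = 0.955), or 0.42 (SE 0.21, adjusted p = 0.755) without null replicate 3. Wildtype replicate 1 and null replicate 3 were the arrays on which neither gene was detected. The second Mga probe was detected on wildtype replicate 2 only.

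Mlx gave the 1 network probe whose groups did not overlap. Probe 1710296 had 5.81, 6.14 and 6.22 in wildtype and 6.22, 6.33 and 6.37 in null replicates 1, 2 and 3, where the highest wildtype and the lowest null value are equal at this rounding. The difference was 0.25 (SE 0.16, 95% confidence interval -0.12 to 0.63, limma adjusted p = 0.934), and 0.22 (SE 0.16) without null replicate 3. Probe 4850440 of the same gene overlapped, with 5.59, 6.13 and 6.13 in wildtype and 6.02, 5.92 and 6.18 in null, and had a difference of 0.09 (SE 0.19, adjusted p = 0.953). Wildtype replicate 1 was the lowest array on both probes. The last Mlx probe was not detected on any array.

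Null replicate 3 was the outermost array for 10 of the 11 tested network probes, the lowest for 6 and the highest for 4, against 64% of all tested probes. With median scaling it was outermost for 7 of 11, against 46.5% of all tested probes. Under that scaling both Mlx probes and the Mxi1 probe came to lie inside the range of the other arrays, and Myc, Max, Mga and Mxd4 stayed lowest and Mxd3 and Mxd1 highest. The share at the outside was thus raised for all probes and depended on the scaling. The gap of Myc, 2.08, was 1.90 with median scaling, 1.69 with an offset of 50 and 1.47 with normexp from regular probes. For Mxd3 the gap of 1.52 was 1.47, 1.19 and 1.01 in the same order, so that the size of both gaps depended on the background correction and their direction did not.

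The genes with the most similar profile to Myc were those that were also far lower in null replicate 3. Each gene's levels were centred on its own mean over the 6 arrays, and 10903 other genes were ordered by the root mean square difference to the centred Myc levels. Genes with no matched symbol, or with only a clone or predicted gene name, were passed over. Of the rest, Hspbap1 was the closest, with a root mean square difference of 0.06 on the log2 scale. It had 8.70 to 9.12 on 5 arrays and 6.66 in null replicate 3. It was followed by Slc35f2 (0.08), Whrn (0.12), Cenpv (0.16) and Ccnd1 (0.17). Ccnd1, which encodes cyclin D1, had 10.59 to 10.89 on the other arrays and 8.65 in null replicate 3. The likeness therefore describes 1 array, and the limma adjusted p between the genotypes was 0.934 for each of these 5 genes.

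Genes reported to be activated by Myc did not pass the test between the genotypes and were mostly lowest in null replicate 3. Of 24 listed genes 22 were tested, and 2 were higher and 20 lower in null, with a median log2 difference of -0.18 beside -0.01 over all tested genes. In limma 0 passed the threshold and 0 had an unadjusted p under 0.05. With each gene set to its wildtype mean, the median of the list was -0.01, 0.02 and -0.56 in null replicates 1, 2 and 3, and -0.02 to 0.01 in wildtype. Null replicate 3 was the lowest array for 18 of the 22, against 35.7% of all tested probes, and also for 18 with median scaling. Without it, 11 genes were higher and 11 lower, with a median of 0.00. The 3 with the smallest p were Prdx3, a mitochondrial peroxiredoxin, at -0.27 (SE 0.16), Ccnd2, which encodes cyclin D2, at 0.94 (SE 0.55), and Pa2g4, a growth-linked RNA-binding protein, at -0.37 (SE 0.22), each with a limma adjusted p of 0.934.

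Ccnd2 was one of the 2 genes of its list with a higher null mean, Cdk4 being the other, with 6.73 to 7.01 in wildtype and 6.42, 8.16 and 8.85 in null replicates 1, 2 and 3. Chosen after their values were seen, Srm, the spermidine synthase gene, had 11.92 to 12.10 on the other 5 arrays and 10.39 in null replicate 3, and Shmt2, of mitochondrial serine metabolism, had 9.51 to 9.87 and then 8.27. Cad, which starts pyrimidine synthesis, had 8.65 to 9.24 on those arrays and 7.68 in null replicate 3. Cdk4, the cyclin D kinase gene of the same list, had 11.52 to 11.75 on the other arrays and 11.61 in null replicate 3, within their range.

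**Figure D4:**
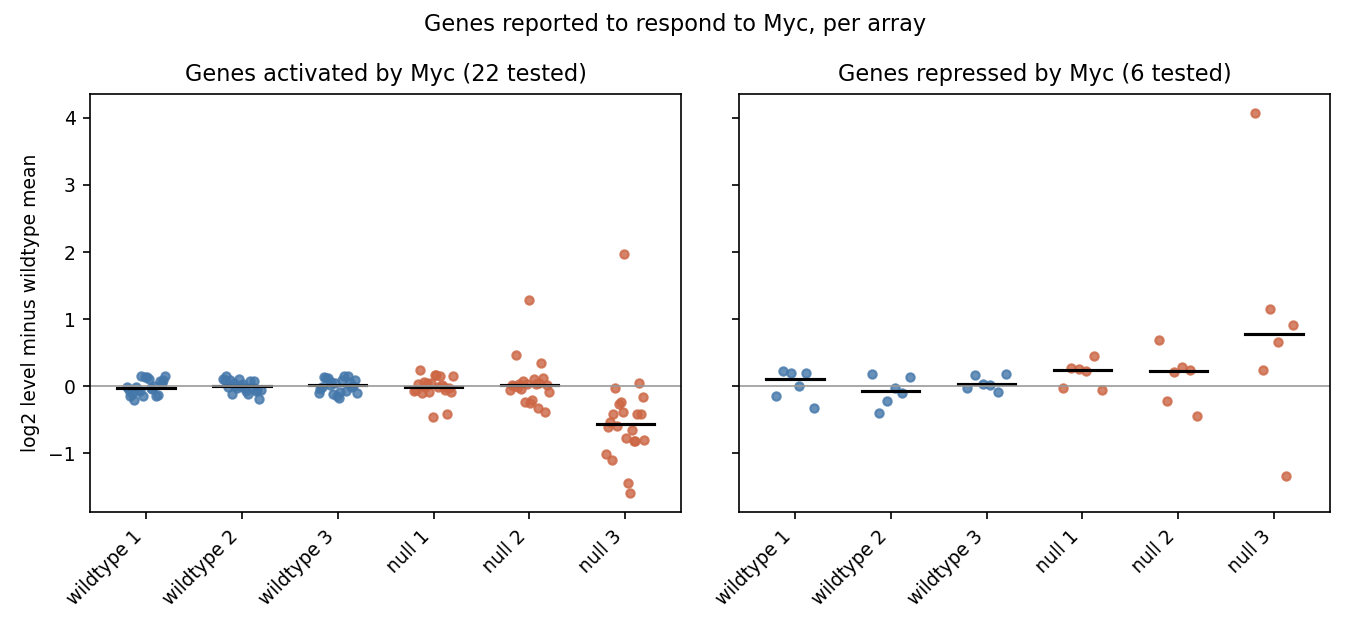
Log2 level relative to the wildtype mean of that gene, for 22 genes reported to be activated by Myc and 6 reported to be repressed; each point is a gene on 1 array and black bars are medians. In null replicate 3 the median is -0.56 for the activated and 0.78 for the repressed genes, while in null replicates 1 and 2 it is -0.01 and 0.02, and 0.24 and 0.23.

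Genes reported to be repressed by Myc were higher in null for 5 of the 6 that were tested out of 9 listed. Their median log2 difference was 0.26 beside -0.01 over all tested genes, or 0.25 without null replicate 3. None passed the threshold in limma, and 1, Gadd45a, had an unadjusted p under 0.05, against 4.04% of all tested probes. Gadd45a, a growth arrest and DNA damage gene, had 7.84 to 7.89 in wildtype and 8.09, 8.16 and 8.53 in null replicates 1, 2 and 3. All null samples were above all wildtype samples, as in 4.52% of the tested probes, with a difference of 0.39 (SE 0.16, adjusted p = 0.934). Cdkn2c, which encodes the cyclin-dependent kinase inhibitor p18, also did not overlap, with 7.73 to 8.15 in wildtype and 8.22, 8.17 and 9.11 in null (difference 0.54, SE 0.27, adjusted p = 0.934). The groups thus did not overlap for 2 of the 6 genes, or 33.3%, against 9.61% of all tested probes.

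Cdkn1a, which encodes the inhibitor p21 and is a target of p53 as well, was the most extreme of these genes in null replicate 3. It had 4.96, 5.29 and 5.08 in wildtype and 5.09, 5.80 and 9.19 in null replicates 1, 2 and 3, and was detected on 1 wildtype array and 2 null arrays. Null replicate 3 was 3.39 above the next array, null replicate 2. The difference of 1.59 (SE 0.95, limma adjusted p = 0.934), which rests on a wildtype mean at the detection limit, was 0.34 without that array. Gadd45b, the 1 gene of the list with a lower null mean, was lowest in null replicate 3 at 6.57, against 7.80 to 8.35.

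Factors that work with the network proteins or turn Myc over had small differences, and none of their 4 lists held a gene past the threshold or, with all arrays, at an unadjusted p under 0.05. Of 14 Myc coactivators, all tested, 8 were higher and 6 lower (median log2 difference 0.01), and the smallest p belonged to Epc1 at 0.30 (SE 0.17), Ccnt1 at -0.20 (SE 0.14) and Kat5 at 0.21 (SE 0.16), components of the NuA4 acetylase or, for Ccnt1, of the elongation factor P-TEFb. Of 11 tested corepressors that Mxd proteins and Mnt recruit, 4 were higher and 7 lower (median -0.07), led by Sap18 at 0.29 (SE 0.17), Rbbp7 at -0.29 (SE 0.19) and Rbbp4 at -0.31 (SE 0.21). The Mga complex PRC1.6 had 1 higher and 10 lower of 11 tested (median -0.05), or 4 higher and 7 lower without null replicate 3, led by Cbx3 at -0.34 (SE 0.21), E2f6 at -0.20 (SE 0.14) and Tfdp2 at -0.24 (SE 0.19). Pcgf6, its Polycomb ring finger subunit, also named after its values were seen, had 9.15 to 9.70 on 5 arrays and 8.14 in null replicate 3.

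Of 14 tested genes of Myc protein turnover, 5 were higher and 9 lower (median -0.05). Fbxw7, the F-box protein that marks phosphorylated Myc for degradation, had 7.68, 8.10 and 7.90 in wildtype and 7.77, 7.38 and 7.19 in null replicates 1, 2 and 3. Null replicates 2 and 3 were below all wildtype samples and null replicate 1 was among them, and the difference was -0.45 (SE 0.20, limma adjusted p = 0.934). Btrc, another F-box protein, had -0.44 (SE 0.22) and Huwe1, a ubiquitin ligase, had 0.23 (SE 0.22). Usp36, a nucleolar deubiquitinase of Myc named after its values were seen, had 8.49 to 8.99 on 5 arrays and 7.30 in null replicate 3.

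The partners of Mlx and the genes they drive in response to glucose were 4 genes, all tested and all higher in null, with a median log2 difference of 0.15 and none past the threshold in limma. Txnip, which restrains glucose uptake, had 10.24 to 10.33 in wildtype and 10.59, 10.19 and 11.39 in null replicates 1, 2 and 3 (difference 0.45, SE 0.29, adjusted p = 0.934). Arrdc4, a relative of Txnip, had 0.16 (SE 0.19), the partner Mlxipl had 0.13 (SE 0.29) and Mlxip had 0.03 (SE 0.18). Without null replicate 3 the list was split, 2 higher and 2 lower.

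The canonical E-box was looked for in the 250 bases before the start of each network gene, in RefSeq promoters of GRCm38.p6. As CACGTG reads the same on both strands, 1 search covers both. Promoters were found for 10 of the 11 genes, 12 in all since Mxi1 has several starts, and not for Myc. The motif was present in 3 of 12, those of Mxd4, Mnt and Mlx, against 6.02% of the 32851 promoters of the table. These windows of 60 bases are shown because they hold the sequence that the network's own dimers bind, with the E-box in capitals.
Mxd4, chr5:34187897-34187956, minus strand, E-box beginning 219 bases before the start: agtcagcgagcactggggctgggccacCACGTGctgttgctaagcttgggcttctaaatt
Mnt, chr11:74830774-74830833, plus strand, E-box beginning 123 bases before the start: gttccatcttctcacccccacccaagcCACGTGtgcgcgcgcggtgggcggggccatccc
Mlx, chr11:101087223-101087282, plus strand, E-box beginning 40 bases before the start: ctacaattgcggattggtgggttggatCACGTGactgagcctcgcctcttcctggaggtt
The arrays do not measure binding. Of these 3 genes, Mxd4 was lowest in null replicate 3, Mlx (probe 1710296) was highest by 0.04 but not with median scaling, and Mnt was within the range of the other arrays. Mxd3, whose level in null replicate 3 stood out among the repressors, had no CACGTG in its window.

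Markers of the B lineage and of other cells differed between the arrays as well. Of 10 tested B lineage markers, 9 were highest in null replicate 3, against 28.3% of all tested probes, and 7 with median scaling. This was not particular to the B lineage. That array was also highest for 5 of 7 erythroid, 4 of 10 myeloid and 2 of 2 megakaryocyte and mast cell markers. It was highest for 0 of 9 hepatocyte and 0 of 2 T and NK cell markers. The summed level of the B lineage markers was 16.25 there against 14.54 to 14.75 on the other arrays. A summed level here is the log2 of the sum of linear levels, so the brightest markers dominate it. Cd79b, a marker of the B lineage, was detected on all 6 arrays, as were Vpreb1 and Igll1, which mark B cell precursors. Pax5, Rag2, Dntt and Vpreb2 were detected on too few arrays to be tested. Igll1 and Vpreb1, which encode the surrogate light chain of the pre-B cell receptor, had 14.56 and 13.95 in null replicate 3. In wildtype they had 12.52 to 12.73 and 11.61 to 11.73. Null replicates 1 and 2 were below every wildtype sample, at 11.96 and 11.97 for Igll1 and 11.07 and 11.34 for Vpreb1. This held for 10.7% of all tested probes. Without null replicate 3, 6 of the 10 B lineage markers were higher in null and 4 lower. The summed level of 9 hepatocyte markers was 11.11 to 11.80 in wildtype and 7.94 to 9.82 in null. All 9 were lower in every null sample than in any wildtype sample, as were 5.09% of all tested probes. Of these 9, 2 passed the threshold (limma), against 0.0567% of all tested probes. Without null replicate 3, 8 passed, against 0.258%, and the median log2 difference went from -2.94 to -3.60. The summed level of 10 myeloid markers was 12.27 to 13.72 in wildtype and 10.80, 11.13 and 13.65 in null replicates 1, 2 and 3. Single myeloid markers differed from that sum. Of the 4 highest in null replicate 3, Mpo had 12.06 there against 7.63 to 9.83 in wildtype. The rest lay within the wildtype range on that array, such as S100a8 at 12.06 against 11.35 to 12.77. For 7 erythroid markers the sum was 14.50 to 15.25 in wildtype and 13.91 to 15.78 in null. For 2 T and NK cell markers it was 8.01 to 8.25 and 6.61 to 8.51, and for 2 megakaryocyte and mast cell markers 6.70 to 6.75 and 5.90 to 9.14. Null replicate 3 had the highest erythroid and the highest megakaryocyte and mast cell sum (15.78 and 9.14), and the lowest T and NK cell sum (6.61). The part of these cells in the levels of the network genes was not tested.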

How the data were processed

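Total RNA of 6 samples was hybridised to 1 BeadChip. The deposited intensity of a probe is the mean over its beads, linear and not normalized (GenomeStudio 1.8.0, per the file headers), with the SD over beads and the number of beads (21 to 65 per network probe, a standard error of 2.64% to 6.90% of the signal). Detection is deposited as a p-value against 936 negative controls, and another of the authors' tables holds the fraction 1 minus that p. The authors' log2 values were made with limma's neqc per the deposited description (limma 3.12.1 and R 2.15.1 in the submitters' processing notes) and the largest gap to the values used here was 5e-09.

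Here the intensities were background corrected and quantile normalized with neqc (offset 16) of limma 3.58.1 in R 4.3.3. Probes with a detection p under 0.05 on at least 3 of 6 arrays were tested, 15878 of 45281, and control probes were left out. Null was compared with wildtype by lmFit and eBayes, two-sided, with Benjamini-Hochberg adjustment over all tested probes at 0.05 and no covariate. The fit was tested on simulated data, in which most of the smallest changes were not called at the full spread between samples. Symbols were matched to RefSeq (GRCm38.p6) for 78.9% of probes. A gene is represented by its brightest tested probe. The number of arrays limits the precision, and intervals are 95% confidence intervals.

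Named by rule are Smchd1, every network probe and the 3 genes with the smallest p of each list. So are the 5 genes with a full symbol that were most like Myc. Other genes of the lists and single cell markers were named outside this rule, several after their values were seen. The members and lists were chosen with earlier results of these data known. Replicate numbers occur in both groups, but deviations of samples with the same number correlated at -0.007 to 0.038, so they were not taken as pairs. Alternatives were other background corrections, offsets, scaling and detection filters, the deposited log2 values, trend with robust moderation, array weights, a replicate block, each array left out, and the mean of a gene's probes. The scalings applied to null replicate 3 alone were added after seeing the data.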

Additional observations from a re-analysis of the deposited data

How the results depend on the processing

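Under all 15 alternatives that refit the probes, 0 network probes passed the threshold, and the lowest adjusted p was 0.328 (limma). No gene of the 7 pathway lists passed under any of them. Of 162 refitted differences of network probes, 145 kept their sign and 17 turned it, all of these not past the threshold. The deposited values, the detection filters, the robust moderation and the replicate block leave a difference unchanged. Under these settings the sign could not turn. With median scaling, which shifted the median of all tested probes to -0.18, the turned values were -0.04 for Mga, -0.06 for Mlx (probe 4850440), -0.04 for Mnt and -0.06 for Mxd1. With array weights they were -0.08 for Mlx (the same probe), -0.30 for Mxd1, 0.00 for Mxd4 (probe 3890343) and 0.09 for Mxi1. Leaving out 1 array at a time gave -0.16 to 0.42 for Mga, -0.09 to 0.18 for Mlx (probe 4850440), -0.11 to 0.23 for Mnt, -0.26 to 0.30 for Mxd1, -0.12 to 0.85 for Mxd3 and -0.20 to 0.04 for Mxi1. The same omission gave -1.33 to -0.20 for Myc. The median of the network genes was -0.18 when each of the 6 arrays had to reach a detection p of 0.01, a filter that drops 3 of the 9 genes. The count over all probes was 9, and it was 5 with normexp from regular probes, 56 with median scaling, 2 with the stricter detection filter, 52 with array weights, 2 with the replicate block and 2 to 41 with 1 array left out, the highest without null replicate 3. Of 112 medians of the lists, 7 moved by more than the spread between arrays. Mnt, Mga and Mycl lie near the detection limit, where small differences cannot be resolved.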
